A study of Mus musculus with 4 samples.

Results

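Hpf1, Parp1, Parp2 and Parg are 4 mouse genes whose products write, direct and remove ADP-ribose at DNA breaks. They were examined in RNA immunoprecipitation (IP) libraries made with the RNA-binding protein Lin28b. The genes were taken by symbol from the mutant table of gene levels, where all 4 were found among 14427 genes, and were joined by gene identifier to the wild-type table of 14755 genes. In all, 13478 genes stood in both tables. Hpf1 was chosen by the fold of a wild-type peak in it, seen in earlier results of these data, so its ratios and peaks are a description with no test. The other 3 genes were added as its partners.

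By the submitters' labels the cells were mouse pancreatic cancer-associated fibroblasts (15376CAFs) that overexpressed Flag-tagged Lin28b. The construct was either wild type (Lin28b-WT) or a mutant deficient in binding RNA (Lin28b-MU). All 4 groups carried an overexpressed Flag construct, and no group without one was analysed here. RNA recovered with an anti-Flag antibody was sequenced beside the input RNA of the same construct, which gave 4 libraries in 4 groups: wild-type IP, wild-type input, mutant IP and mutant input. Each group held 1 library, so no value has a replicate error and no difference between constructs was tested. The RNA of Lin28b itself was unequal between constructs, with input levels of 13.8 FPKM (wild type) and 30.0 FPKM (mutant). Its IP levels were 8.99 FPKM (wild type) and 36.7 FPKM (mutant). The part of these unequal levels in the wild-type minus mutant differences given below was not tested. Both tables listed 6 of 13 fibroblast markers, with a summed input level of 820 FPKM (wild type) and 708 FPKM (mutant), and 4 and 3 of the 6 reached 1 FPKM. Vim, Fn1 and Sparc were high, with Vim at 607 FPKM (wild type) and 547 FPKM (mutant), while Col1a1 stood at 0.722 and 0.404 FPKM and Acta2 at 0.227 and 0.524 FPKM. Of 6 epithelial markers 5 were listed, all above 1 FPKM in both inputs, with a summed level of 2014 and 1377 FPKM and Krt8 at 601 and 494 FPKM. Krt19 stood at 665 and 322 FPKM, Cdh1 at 219 and 114 FPKM and Muc1 at 134 and 6.77 FPKM. The epithelial sum thus exceeded the fibroblast sum in both inputs, so these markers do not by themselves bear out the fibroblast label. None of the 3 endothelial or 3 acinar markers was listed in both tables. Transcript levels are in FPKM (fragments per kilobase, scaled to the size of the library), a unit read from the values, and the number of reads behind them is unknown. In such bulk RNA, fewer cells of a type and less RNA per cell cannot be told apart.

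ADP-ribosylation is one of the earliest responses to a broken DNA strand. PARP1 and PARP2 bind the break and use NAD to build chains of ADP-ribose on themselves and on nearby proteins. HPF1 joins the active site of either enzyme and directs the modification to serine residues, including those of histones. PARG is the main hydrolase that cuts the chains down again. Lin28b is best known for blocking maturation of let-7 microRNAs, and it also binds many messenger RNAs, often at GGAG motifs.

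Hpf1 RNA stood above input in the wild-type IP and below input in the mutant IP. The gene (ENSMUSG00000038005) covers 18.3 kb of the plus strand at chr8:60890418-60908671 (GRCm38). Hpf1 stood at 104.5 FPKM in the wild-type IP against 22.6 FPKM in its input, and at 8.44 FPKM in the mutant IP against 23.7 FPKM in its input. The inputs were alike, with the mutant input 1.05-fold above the wild-type input, and the IP libraries lay on opposite sides of them. The log2 ratio of IP over input, computed with 0.01 added to each level, was 2.21 for the wild type, a 4.63-fold higher level in the IP. For the mutant it was −1.49, a 2.80-fold lower level in the IP. Between the IP libraries the Hpf1 level differed 12.4-fold, although the authors normalised the wild-type and mutant tables separately.

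A gene was called higher or lower in an IP where its level differed at least 2-fold from input with a q-value under 0.05 in the authors' deposited table. That q-value compares 2 libraries and not 2 conditions. For Hpf1 it was listed as 0 (wild type) and 2.51e-90 (mutant), so Hpf1 was called higher in the wild-type IP and lower in the mutant IP. Over each whole table, 7.4% of genes were called higher in the wild-type IP and 36% were called lower in the mutant IP. The mutant call is thus a common one, and it depended on the scale: all genes had a median log2 ratio of −0.29 in the wild-type table and −0.61 in the mutant table. Relative to those medians Hpf1 stood at 2.50 (wild type) and −0.88 (mutant), the latter short of 2-fold. Both calls together, higher in the wild type and lower in the mutant, were made for 152 genes, or 1.13% of the genes in both tables, and the reverse for 0.171%.

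**Figure D1:**
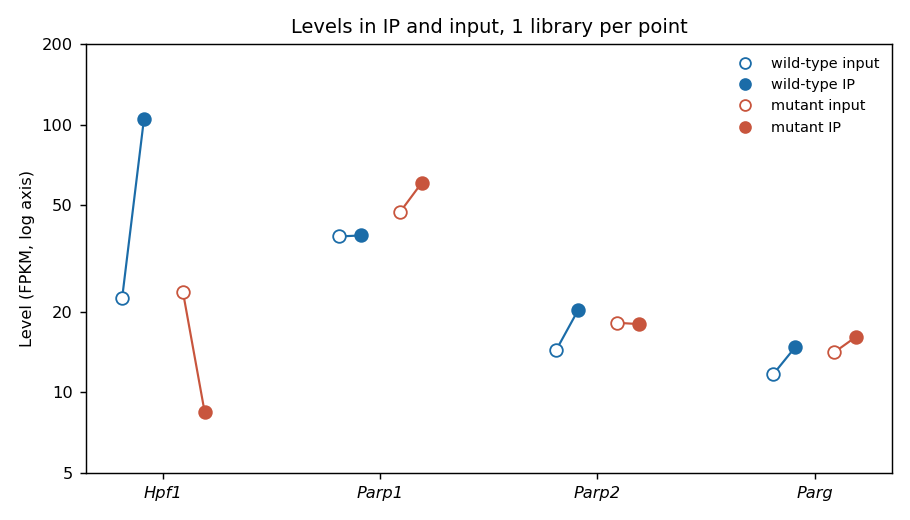
Levels of Hpf1, Parp1, Parp2 and Parg in FPKM on a log axis, with open points for input, filled points for IP, blue for wild type and red for mutant; each point is 1 library and a line joins an IP to its own input. Hpf1 runs from 22.6 to 104.5 FPKM in the wild type and from 23.7 to 8.44 FPKM in the mutant, while the pairs of points of the other 3 genes lie close together.

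Parp1 encodes the PARP enzyme that makes most of the ADP-ribose formed after DNA damage, and it was the most abundant of the 4 genes in both inputs. The gene (ENSMUSG00000026496) covers 32.3 kb at chr1:180568924-180601254 on the plus strand. Parp1 stood at 38.5 FPKM in the wild-type IP against 38.2 FPKM in its input, and at 60.6 FPKM in the mutant IP against 47.1 FPKM in its input. The wild-type IP was level with its input, and the mutant IP was the highest of the 4 libraries. The log2 ratios of Parp1 were 0.013 (wild type) and 0.36 (mutant), a 1.29-fold higher level in the mutant IP, and neither was called. The q-value in the authors' deposited table of Parp1 was 0.072 (wild type) and 1.34e-42 (mutant).

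Parp2 encodes the smaller relative of PARP1. The gene (ENSMUSG00000036023) covers 13.5 kb at chr14:50807841-50821301 on the plus strand. Parp2 stood at 20.2 FPKM in the wild-type IP against 14.4 FPKM in its input, and at 18.0 FPKM in the mutant IP against 18.2 FPKM in its input. The wild-type IP lay 1.41-fold above its input, and the mutant IP was level with its own. The log2 ratios of Parp2 were 0.49 (wild type) and −0.017 (mutant), and neither was called. Relative to the median of the mutant table the mutant value was 0.59, so its sign turned with the scale.

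Parg, the gene of the hydrolase, is the longest of the 4. It (ENSMUSG00000021911) covers 95.6 kb at chr14:32201949-32297550 on the plus strand. Parg stood at 14.7 FPKM in the wild-type IP against 11.7 FPKM in its input, and at 16.1 FPKM in the mutant IP against 14.1 FPKM in its input. Both IP libraries lay a little above their inputs. The log2 ratios of Parg were 0.33 (wild type) and 0.19 (mutant), with neither called, and the q-values in the authors' deposited table were 1.61e-22 and 9.35e-05. A share of 48.8% of the genes in both tables was, like Parp1, Parp2 and Parg, called in neither construct.

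The wild-type ratio of Hpf1 exceeded its mutant ratio by 3.70 on the log2 scale. The same difference was −0.35 for Parp1, 0.51 for Parp2 and 0.14 for Parg. Over all genes in both tables its median was 0.32, so after centring the difference of Parg became −0.18. Hpf1 held place 415 of 13478 genes by this difference. Many genes above it had levels near 0, where the ratio rests on the pseudocount, and among 9771 named protein-coding genes with at least 1 FPKM in the higher library of each table Hpf1 held place 24. By the wild-type ratio alone it held place 203 of the 13478 genes and place 18 of these 9771. By input level Hpf1 held places 3275 (wild type) and 3115 (mutant) of 13478 genes.

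**Figure D2:**
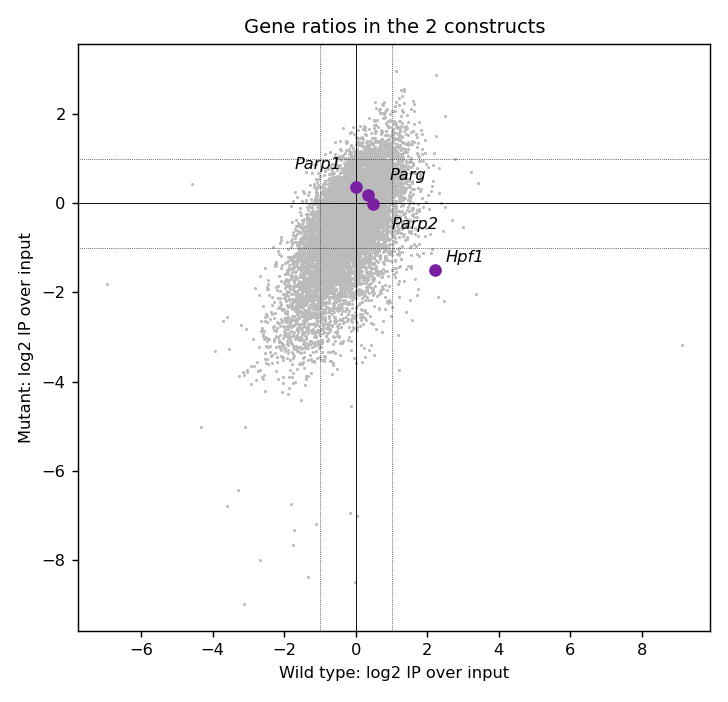
Log2 ratio of IP over input in the wild type (x axis) against the mutant (y axis) for 9771 named protein-coding genes with at least 1 FPKM in each table, with Hpf1, Parp1, Parp2 and Parg in purple and dotted lines at 2-fold. Hpf1 lies at 2.21 and −1.49, at the lower right of the cloud, and the other 3 genes lie inside it.

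Ratios in these libraries moved with the span of the gene, so the protein-coding genes in both tables were divided by span into 10 classes of equal size, and each gene was set beside its own class. The class of Hpf1 (1126 genes, 17.1 to 23.3 kb) had median log2 ratios of −0.24 (wild type) and −0.56 (mutant). Of these genes 99.4% had a lower wild-type ratio than Hpf1, and 17.1% had a lower mutant ratio. From percentile 5 to percentile 95 the mutant ratios of the class ran from −2.20 to 0.88, a range that holds the mutant value of Hpf1. Over the same percentiles the wild-type ratios ran from −1.38 to 1.19, below the wild-type value of 2.21. For Parp1 the medians of its class (31.4 to 43.9 kb) were −0.0097 and −0.20, and 50.7% of the genes lay below its wild-type ratio and 76.1% below its mutant ratio. For Parp2 (12.3 to 17.1 kb) the shares below it were 84.5% and 79.2%, and for Parg (65.4 to 111 kb) 60.3% and 52.0%. Parp1, Parp2 and Parg thus lay between percentiles 5 and 95 of genes of like span in both constructs.

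The peaks gave the positions along Hpf1 at which the authors called a signal in each IP. Whether Lin28b was bound at these positions was not tested. The wild-type list held 11912 peaks and the mutant list 15931, and a peak was given to a gene where its summit lay inside the gene on the same strand. Hpf1 carried 7 wild-type peaks and 0 mutant peaks. At least 1 wild-type peak was found in 25.1% of the genes in both tables and at least 1 mutant peak in 18.6%, while 12.1% had wild-type peaks alone. At least 7 wild-type peaks were found in 3.13% of genes. At least 7 wild-type peaks and no mutant peak were found in 50 genes, or 0.371%, and 8 of the 50 had a span no longer than that of Hpf1. The cuts of 7 and 0 are the counts of Hpf1 itself, so these shares do not test how rare it is. All folds of peaks are the authors' own values, and fold and −log10 q-value describe a peak within its own list.

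The strongest Hpf1 peak, at chr8:60899917-60900225, lay near the middle of the gene, with its summit 9.66 kb from the gene start. Its fold was 48.6 and its −log10 q-value 336.8. By fold, the measure on which Hpf1 was chosen, it held place 8 of the 11912 wild-type peaks, which is no test. Before it stood 3 peaks with summits 3.27, 5.04 and 6.27 kb from the start and folds of 13.5, 10.9 and 11.9. After it stood a pair of weaker peaks at 13.6 and 15.1 kb, with folds of 3.85 and 4.39, close to the median of 3.77 over the wild-type list. The last, at chr8:60907243-60907553 with a fold of 13.5 and a −log10 q-value of 317.7, had its summit 194 bases before the end that RefSeq gives for Hpf1 in this build and 1285 bases before the end in the authors' table. The Hpf1 peaks were 210 to 319 bases long, covered 10.6% of the span together, and had summits 1226 to 3917 bases apart. In 5 of the 7 the fold was at least 10. Whether a peak lies in an exon or an intron was not assigned, since exon models were not used here, and the sequence under the peaks is not shown, since the sequences used here covered RefSeq promoter windows alone.

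**Figure D3:**
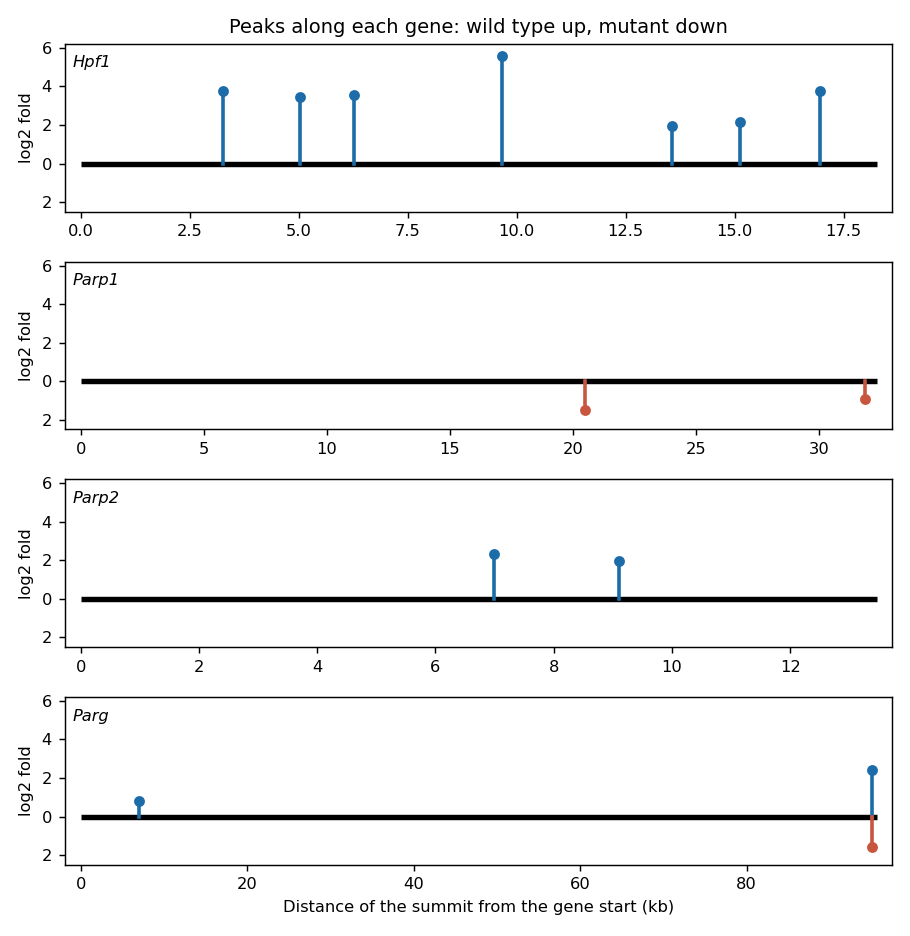
Peaks along Hpf1, Parp1, Parp2 and Parg by the distance of the summit from the gene start in kb; the height is log2 of the authors' fold, drawn upwards in blue for the wild-type list and downwards in red for the mutant list, and the black bar is the gene span. Hpf1 has 7 wild-type peaks, the strongest at 9.66 kb, and 0 mutant peaks, and in Parg a wild-type and a mutant peak coincide near the end of the gene.

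One further wild-type peak lay within the Hpf1 span on the opposite strand. It stood at chr8:60890491-60890691 on the minus strand, with a fold of 8.07 and a −log10 q-value of 9.42, and its summit lay 150 bases inside the gene start of the authors' table. The mutant list held no peak there. The library kit keeps the strand of the RNA, and neither the authors' tables nor the RefSeq table list a gene other than Hpf1 over this peak. The sequence just before the Hpf1 start is shown because this antisense peak lies beside it: the peak begins 14 bases past the end of the RefSeq promoter window. Printed 5′ to 3′ on the plus strand are the 214 bases at chr8:60890178-60890391 (GRCm38.p6, from RefSeq), which end at the first base before the RefSeq gene start. The capitals mark the letters GGGCGG, the core of a GC box, searched on both strands (CCGCCC on the other).
Hpf1 promoter: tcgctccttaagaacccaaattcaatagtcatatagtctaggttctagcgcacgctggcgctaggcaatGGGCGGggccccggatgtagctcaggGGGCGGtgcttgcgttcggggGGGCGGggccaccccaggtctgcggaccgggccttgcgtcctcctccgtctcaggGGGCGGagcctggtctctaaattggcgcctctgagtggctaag
The letters GGGCGG occurred 4 times, each on the plus strand. Of 32851 RefSeq promoter windows cut to the same 214 bases, 27.6% held at least 1 match on either strand. The share of windows with 4 matches was not computed. A match of letters is a description and not a binding site.

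The other 3 genes carried 0 to 2 peaks in each list. Parp1 had 0 wild-type peaks and 2 mutant peaks: chr1:180589246-180589445 with a fold of 2.83 and chr1:180600420-180600808 with a fold of 1.87. Both folds lay below the mutant median of 4.22, and the second summit lay 215 bases before the RefSeq end of Parp1. Mutant peaks with no wild-type peak, the arrangement of Parp1, were found in 5.57% of genes.

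Parp2 had the opposite arrangement, with 2 wild-type peaks and 0 mutant peaks. They lay at chr14:50814735-50814934 with a fold of 5.01 and at chr14:50816797-50816996 with a fold of 3.86, and their summits stood 6.99 and 9.11 kb from the gene start. By −log10 q-value, 10.5 and 13.5, they stood below every sense peak of Hpf1, whose lowest was 39.5, while their folds lay above the median of the wild-type list, 3.77. The lowest fold of Hpf1 was 3.85.

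Parg was the only one of the 4 genes with peaks in both lists, as were 13% of genes. The wild-type peak at chr14:32296668-32297279, with a fold of 5.26, and the mutant peak at chr14:32296861-32297076, with a fold of 3.0, overlapped, and their summits lay 36 bases apart close to the end of the gene. This was the 1 wild-type peak among the 11 of these genes that overlapped a mutant peak. A second wild-type peak of Parg, at chr14:32208700-32208979, had a fold of 1.77 and a −log10 q-value of 1.91. Hpf1, Parp1 and Parg each had a peak in the last 10% of the gene, and Parp2 had none. In the wild-type list 37.4% of the summits in protein-coding genes lay in the last 10% of the span, and in the mutant list 29.7%.

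Genes with a pattern like that of Hpf1 were sought among 9770 other named protein-coding genes, by the distance between their 4 log2 levels after each gene was centred on its own mean over the 4 libraries. The 5 nearest were Rassf7 (distance 0.38), Perp (0.49), Sec11c (0.51), Bnip3 (0.54) and Nsmce1 (0.54), against a median distance of 2.67. Sec11c encodes a signal peptidase subunit, Bnip3 a mitochondrial receptor for mitophagy and Nsmce1 a subunit of the SMC5/6 complex. Their wild-type log2 ratios ran from 1.54 in Perp to 2.47 in Nsmce1, and their mutant ratios from −2.19 in Nsmce1 to −0.96 in Bnip3. Each carried wild-type peaks, between 1 in Perp and 6 in Nsmce1, and none carried a mutant peak. Wild-type peaks alone were found in 12.1% of the genes in both tables. The peaks came from the IP libraries whose levels chose these genes, so this is a description and no separate support.

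Parp1, Parp2 and Parg had nearer neighbours than Hpf1, and their median distances to the same number of genes were 1.16, 1.05 and 1.05. The nearest to Parp1 were Ppp1r8 (0.058) and Bicd2 (0.067). Those nearest to Parp2 were Ints13 (0.039), Rad54b (0.069) and Mbd4 (0.070), and those nearest to Parg were Hnrnpu (0.025), Strn3 (0.030) and Ncaph (0.030). By the same measure Parp2 and Parg lay 0.22 apart and Parp1 and Parg 0.38 apart, whereas Hpf1 lay 3.04 from Parp1, 2.46 from Parp2 and 2.66 from Parg. The distance is over 4 libraries and describes these libraries.

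The wider pathway was followed in 5 lists that hold 75 genes, of which 70 were measured in both tables. Among the 70, 4 were called higher and 10 lower in the wild-type IP, where 7.4% and 21.5% of all genes were. In the mutant IP 2 were called higher and 21 lower, against 5.98% and 36% of all genes. Over the 70 the median log2 ratios were −0.11 (wild type) and −0.28 (mutant), above the medians of −0.29 and −0.61 over all genes. Their median span was also longer, at 26.1 kb against 18.4 kb for the genes in both tables. The part of span in the higher medians was not tested. Hpf1 and Macrod2 were the 2 genes of the 70 that were called higher for the wild type and lower for the mutant. These 2 calls together were made for 1.13% of the genes in both tables. Hpf1 was chosen from these data, and Macrod2 stood at no more than 1.38 FPKM in any library. The mutant counts depended on the scale. Relative to the mutant table's median, 13 of the 70 were called higher and 5 lower, where 15.9% and 22.8% of all genes were. Relative to the wild-type median 6 were called higher and 5 lower, against 12.2% and 14.7% of all genes. The counts lower in the mutant then became 0 for PARP writers, 3 for erasers, 0 for cofactors and readers, 2 for break repair and 0 for NAD genes. Those higher in the mutant became 6, 1, 2, 3 and 1 in the same order.

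Of 16 PARP family genes, listed together as writers though not every family member need be active, 1 was called higher in the wild-type IP and 15 were not called. In the mutant IP 2 were called higher, 2 lower and 12 not called. Of all genes, 7.4% were called higher and 21.5% lower in the wild-type IP, and 5.98% and 36% in the mutant IP. The median log2 ratios were 0.23 and 0.30, and the median span was the longest of the 5 lists at 36.4 kb. Parp11 stood at 4.46 FPKM in the wild-type IP against 4.59 in its input, and at 28.4 in the mutant IP against 13.7 in its input, and was called higher in the mutant at 2.07-fold. The tankyrase gene Tnks, named after its values were seen, was the other, at 39.1 FPKM in the mutant IP against 19.4 FPKM in its input. Parp6 and Parp16 were called lower in the mutant, by 2.18-fold and 2.26-fold. The 1 gene called higher in the wild type, Parp12, stood at only 0.838 FPKM in that IP against 0.402 FPKM in its input, and with a pseudocount of 1 no PARP gene was called there.

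Several PARP family genes differed between the inputs, unlike Hpf1, Parp1, Parp2 and Parg, whose mutant inputs were 1.05-fold to 1.26-fold above the wild-type inputs. In 6 of the 16 the mutant input exceeded that of the wild type at least 2-fold, as in 8.7% of all genes. The wild-type input was the higher by that margin in 0 of the 16 and in 8.32% of all genes. These genes were named after their values were seen. Parp14 stood at 1.51 FPKM (wild-type input) and 28.2 FPKM (mutant input), Parp12 at 0.402 and 32.6, Parp9 at 5.16 and 26.1, and Parp10 at 2.84 and 18.8. Dtx3l, which encodes the ubiquitin ligase that partners PARP9, stood at 3.80 and 18.3. Parp9, Parp12, Parp14 and Dtx3l are known as interferon-induced genes. The other 2 of the 6 were Parp11, at 4.59 and 13.7 FPKM, and Parp8, at 0.110 and 2.56 FPKM. Of these genes Parp14 carried 12 mutant peaks, Parp9 6, Parp11 3 and Parp10, Parp12 and Dtx3l 1 each, against 0 wild-type peaks in each, and Parp8 carried 0 peaks in either list. Macrod2, an ADP-ribose eraser, stood at 0.123 and 1.38 FPKM and carried 0 peaks in either list. The part of the input levels in these peak counts was not tested.

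Of 10 ADP-ribose eraser genes, 1 was called higher and 2 lower in the wild-type IP, against 7.4% and 21.5% of all genes. In the mutant IP 0 were called higher and 5 lower, against 5.98% and 36% of all genes. The median log2 ratios were −0.57 and −1.13. Relative to the mutant table's median 3 erasers were called lower, against 22.8% of all genes. Oard1, whose product removes ADP-ribose from acidic residues, stood at 13.0 FPKM in the wild-type IP against 21.1 in its input, and at 5.83 in the mutant IP against 22.5 in its input. It was called lower in the mutant alone, by 3.86-fold. Macrod1, which encodes a macrodomain hydrolase, was called lower in both, by 2.28-fold and 3.53-fold. Parg was not called in either.

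Of 11 measured genes for cofactors and readers of ADP-ribose, Hpf1 was the 1 called higher in the wild-type IP. Of the 2 called lower there, Xrcc1, whose product is a scaffold drawn to ADP-ribose at breaks, was so by 2.87-fold. Xrcc1 stood at 5.98 FPKM in the wild-type IP against 17.2 in its input, and at 14.5 in the mutant IP against 17.3 in its input. Xrcc1 thus had equal inputs, as Hpf1 did, but its low library was the wild-type IP, and its difference between the constructs was −1.26. In the mutant IP Hpf1 was the 1 gene of the list called lower, and 0 were called higher. The shares of all genes called higher and lower were 7.4% and 21.5% (wild type) and 5.98% and 36% (mutant). The medians of the list were −0.33 and −0.15.

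**Figure D4:**
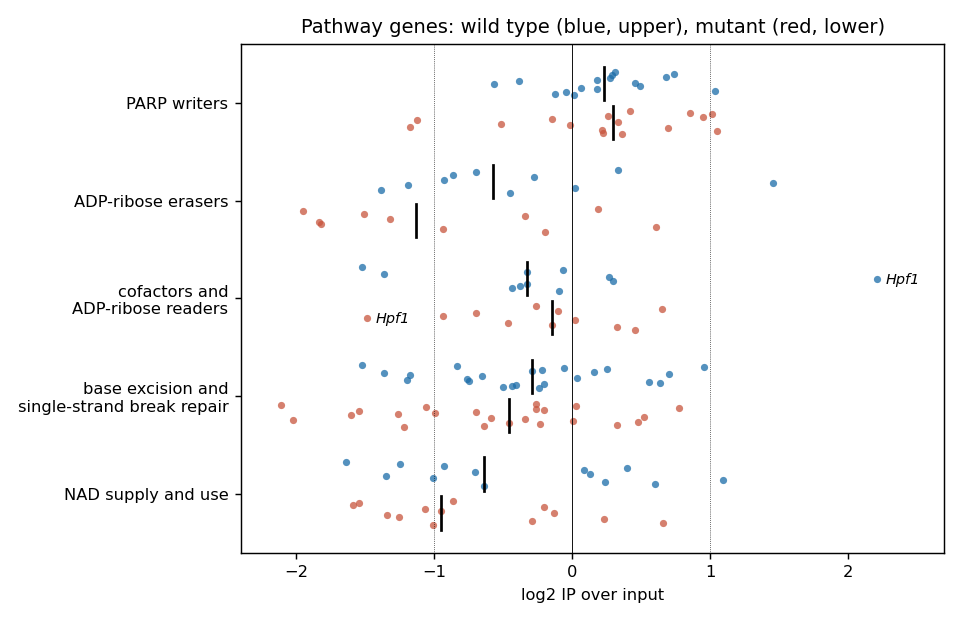
Log2 ratio of IP over input of each measured gene of the 5 pathway lists, wild type in blue above and mutant in red below, with a black bar at the median of each row and dotted lines at 2-fold. Hpf1 lies at 2.21 in the wild type, to the right of every other gene drawn, and at −1.49 in the mutant.

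Base excision repair begins with glycosylases that remove damaged bases, and single-strand break repair then processes and seals the break. Of 23 measured genes, 0 were called higher and 4 lower in the wild-type IP, against 7.4% and 21.5% of all genes. In the mutant IP 0 were called higher and 7 lower, against 5.98% and 36% of all genes. The median log2 ratios were −0.29 and −0.46. Relative to the mutant table's median 3 were called higher and 2 lower, against 15.9% and 22.8% of all genes. The DNA glycosylase genes Ung, Mpg and Nthl1 were called lower in the mutant IP, by 4.32-fold, 4.06-fold and 3.03-fold. Their wild-type log2 ratios were −0.84, −0.75 and −0.65. Another glycosylase gene, Ogg1, was called lower in the mutant IP by 2.40-fold. The glycosylase genes Tdg, Neil3, Mbd4, Smug1, Mutyh and Neil1 were not called there, with log2 ratios of 0.77, 0.52, 0.0068, −0.26, −0.34 and −0.58. Polb, which encodes the gap-filling polymerase and was named after its values were seen, stood at 13.2 FPKM in the wild-type IP against 11.8 in its input, and at 3.51 in the mutant IP against 10.2 in its input.

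Of 13 measured NAD supply and use genes, 1 was called higher and 4 lower in the wild-type IP. Over all genes the shares were 7.4% and 21.5%. In the mutant IP 0 were called higher and 6 lower, against 5.98% and 36% of all genes. The median log2 ratios were −0.64 and −0.95. Nampt, the rate-limiting enzyme gene of NAD salvage, was the 1 called higher in the wild type, at 35.0 FPKM in the IP against 16.4 in its input, and it was named for that call. It carried 7 wild-type peaks, as many as Hpf1, and 1 mutant peak. The deacylase genes Sirt7 and Sirt6 were called lower in the wild-type IP by 3.11-fold and 2.38-fold. Sirt6 and Sirt2 were called lower in the mutant IP by 2.92-fold and 3.0-fold.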

How the data were processed

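Hpf1, Parp1, Parp2, Parg and the pathway lists were chosen with earlier results of these data known. Reads were processed with MACS2 2.2.7.1, HISAT2 2.1.0, bedtools and HOMER 4.11.1 on builds mm10 and GRCm38, per the submitters' processing notes. The authors deposited 1 level per gene and library, read here as FPKM because column sums from 207301 to 321238 are those of neither TPM nor CPM. They also deposited a log2 ratio, a p-value and a q-value per gene, and the sources used here do not name the test. Recomputing log2 of (IP + 0.01) over (input + 0.01) returned that ratio to within 1.57e-09. The deposited peak lists give a score, a fold ratio, a −log10 p-value and a −log10 q-value per peak, called per IP and per strand. Whether input was the control is not given.

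Gene symbols came from the mutant table. Called meant at least 2-fold with a q-value under 0.05. Peaks overlapping by at least 1 base on 1 strand were shared. Named genes were the 4 genes, up to 3 called genes per list with the highest absolute ratio and at least 1 FPKM, and the nearest genes by distance (5 for Hpf1, 3 for each other); of these, 2 are not reported here. Calls and peak assignment were run on simulated data with planted changes, set q-values and no noise. That checks the steps alone and does not measure how reliable calls from single libraries are. Python 3.11.15 and pandas 2.3.3 were used. Alternatives were other pseudocounts, thresholds, centring, level filters and peak rules.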

Additional observations from a re-analysis of the deposited data

Results flagged for a closer look

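With 1 library per group, a wild-type and a mutant ratio of opposite sign are noted here without a test of the difference. The wild-type minus mutant log2 difference was 3.70 for Hpf1 and 0.51 for Parp2, whose mutant ratio was close to 0. Among the genes nearest to Hpf1, which the distance selects for this pattern, it was 4.66 for Nsmce1, 3.35 for Sec11c, 3.22 for Rassf7, 2.94 for Perp and 2.64 for Bnip3. Of the 70 pathway genes measured, 17 had ratios of opposite sign, as did 28.4% of all genes: 12 with the wild type above 0 and 5 with the mutant above 0. Where the wild type was above 0, the difference was also 3.29 for Macrod2, 1.70 for Polb, 1.69 for Pcna and 1.24 for Parp16. It was 1.21 for Macroh2a1, 1.15 for Nmrk1, 0.60 for Sirt1, 0.53 for Nadsyn1, 0.33 for Parp8 and 0.26 for Nmnat2. Where the mutant was above 0, the difference was −1.09 for Parp11, −0.76 for Aptx, −0.72 for Timeless, −0.56 for Aplf and −0.35 for Parp10. Outside the pathway lists it was −0.45 for Ppp1r8, the gene whose pattern of levels lay nearest to that of Parp1.

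The minus-strand wild-type peak at the start of Hpf1 lies outside the gene levels compared, and it had the authors' fold of 8.07, with no mutant peak at the same place.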

How the results depend on the processing

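No paired analysis was possible because each group held 1 library, and no library could be left out. The log2 ratios of Hpf1, Parp1, Parp2 and Parg kept their direction and call under the other pseudocounts and thresholds tried, and the differences between constructs kept their direction under the other pseudocounts. Centring on the table median took the mutant ratio of Hpf1 to −0.88, no longer past 2-fold, and that of Parp2 to 0.59, and centring the differences took that of Parg to −0.18. With folds of at least 5 the mutant peaks of Parp1 fell to 0, the wild-type peaks of Parp2 to 1 and of Parg to 1, and the mutant peaks of Parg to 0. With a −log10 q-value of at least 10, Parg kept 1 wild-type and 0 mutant peaks, and Hpf1 kept 7. With the mutant list shortened to the wild-type length, 0 wild-type peaks of these genes were shared. Over the 70 pathway genes, a pseudocount of 1 gave 2 higher and 5 lower in the wild type and 1 higher and 12 lower in the mutant. Centring, which shifts all genes alike, gave 6 higher and 5 lower in the wild type and 13 higher and 5 lower in the mutant. With a level of at least 1 FPKM, 2 were higher in the wild type. The shares over all genes at that pseudocount and that level filter were not computed. Whether those changes in count are particular to the pathway is therefore unknown. By the difference between constructs Hpf1 held place 415 of all genes and place 24 of 9771 after a filter chosen after seeing the data. That filter kept named protein-coding genes with at least 1 FPKM in the higher library of each table. Unknown read totals leave all levels without counting intervals.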
